A study of Sus scrofa with 12 samples.

Results

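FOS, ATF3, BTG2, ZFP36 and IER3 are 5 immediate early response genes, read here as signs of stress from cell isolation. They are 5 of the 6765 named genes on the Affymetrix porcine genome array. Each was chosen by its symbol in the platform annotation, taken from probe sets that carry 1 symbol only. A probe set is a group of short probes summarised to 1 value, and each of the 5 genes had 1 such probe set, so no choice between probe sets was needed. Their gene IDs in the annotation were 100144486 for FOS, 100738612 for ATF3, 100048932 for BTG2, 100316849 for ZFP36 and 100154770 for IER3. All 5 were tested, and no filter on low values was applied.

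The study profiled total RNA of pig cells on 12 arrays, with 3 labelled as biological replicates in each of 4 groups. The groups were mature adipocytes from fat tissue (MA), dedifferentiated fat cells grown from MA to semiconfluence by ceiling culture, in which buoyant fat cells settle on the roof of the vessel (DFAT), granulosa cells from ovarian follicles (GC), and dedifferentiated granulosa cells grown from GC in vitro to semiconfluence (DFOG). MA and GC are called the isolated cells below, and DFAT and DFOG the cultured cells. The design asked which genes and functions change as each cell type dedifferentiates. In both lineages the isolated cells were also the differentiated ones, so isolation, loss of the differentiated state and growth in culture cannot be told apart. The labels give no breed, age, sex or treatment of the animals and no method or duration of isolation. No animal, litter or culture is named for any replicate, and every p-value here therefore weighs a difference only against the spread among these arrays, some of which may come from handling.

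Immediate early genes are transcribed without new protein synthesis when growth factors, stress or injury activate MAP kinases and factors such as SRF and CREB. Their RNAs are mostly short-lived, so their level follows recent signalling, and enzymatic or mechanical dissociation of tissue is a known trigger. The 5 genes stand at different steps of that response. FOS and ATF3 encode transcription factors of the basic leucine zipper class, BTG2 an antiproliferative cofactor that promotes RNA deadenylation, ZFP36 (tristetraprolin, TTP) a protein that binds AU-rich elements and speeds RNA decay, and IER3 a regulator of cell survival that is also a target of NF-kappaB.

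DFOG replicates 2 and 3 differed far less than any other pair, with an SD of log2 differences over all probe sets of 0.07, where the 11 other pairs gave 0.31 to 0.62. They were counted as 1 sample, so DFOG has n = 2 and the fit rests on 11 samples. Both labelled cell types matched most of their markers. Of 11 adipocyte markers 10 passed in limma as higher in MA than GC, and CEBPA did not. Of 13 granulosa markers 10 passed as lower in MA, and INHBA, CYP19A1 and FOXL2 did not. Of all named genes 26.8% passed as higher in MA and 22.6% as lower. The mean of 11 adipocyte markers was 11.7 to 11.9 in MA against 5.78 to 6.01 in GC, and the mean of 13 granulosa markers was 9.78 to 10.2 in GC against 5.70 to 6.02 in MA.

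In the adipocyte lineage all 5 genes were lower in DFAT than in MA, and in the granulosa lineage FOS, ATF3, BTG2 and ZFP36 were lower in DFOG than in GC while IER3 was higher. FOS had the largest change of the 5 in each lineage, 33.7-fold lower in DFAT and 36.0-fold lower in DFOG. In limma, 5 of 5 passed as lower in DFAT than MA, where 16.4% of all 23999 probe sets did, and the median difference of the 5 was -3.35 against -0.07 over all probe sets. In DFOG against GC, 4 of 5 passed as lower and 1 as higher, where 12.6% of probe sets passed as lower and 12.3% as higher, with a median of -2.74 against -0.02 over all probe sets. Falls in both lineages were called for 4 of 5, against 4.04% of probe sets. These are levels in bulk RNA, in which fewer cells that express a gene cannot be told apart from less RNA per cell, and each is set against the rest of the RNA hybridised to that array. The values of all 5 genes did not overlap between DFAT and MA or between DFOG and GC, which was so for 44.0% and 49.0% of probe sets.

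**Figure D1:**
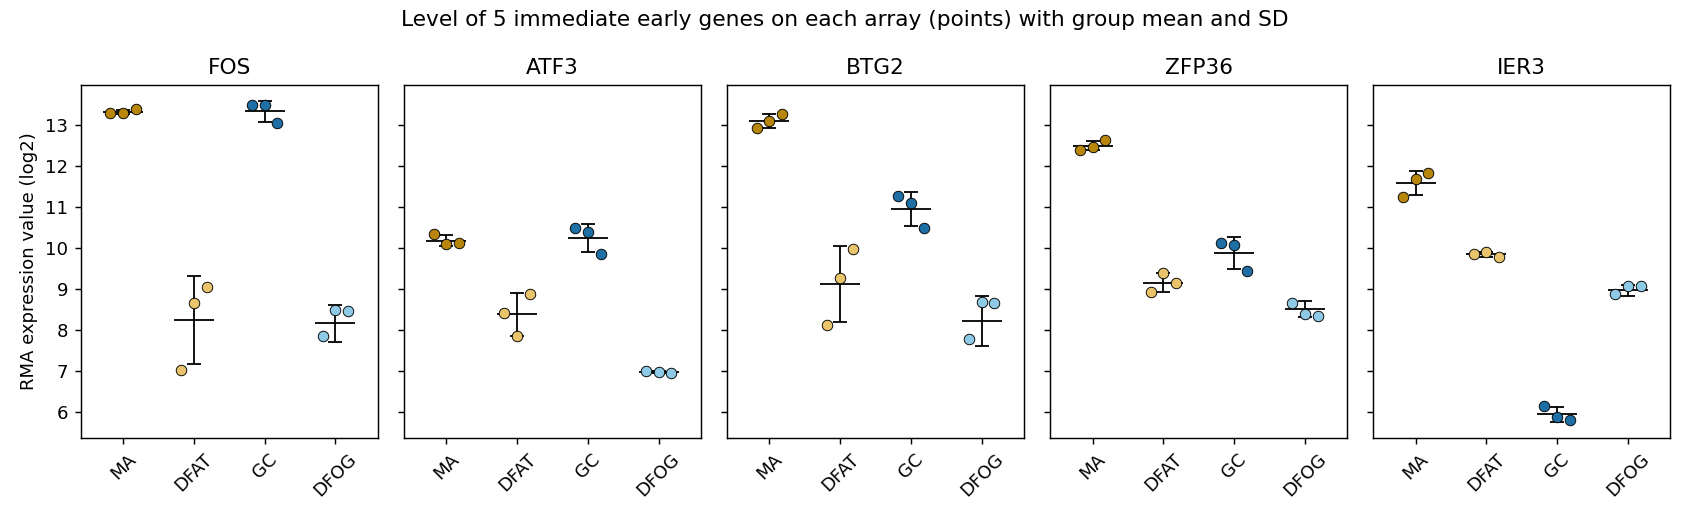
RMA expression value on the log2 scale (y axis) of each of the 5 immediate early genes on every array (points) in MA, DFAT, GC and DFOG, with the group mean and SD as lines (DFOG n = 2, since replicates 2 and 3 count as 1 sample). FOS sits between 13.05 and 13.49 on the 6 isolated arrays and between 7.03 and 9.05 on the 6 cultured arrays, while IER3 is lowest in GC.

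FOS, the partner of JUN in the AP-1 factor, stood at 13.29, 13.29 and 13.39 in MA and at 7.03, 8.67 and 9.05 in DFAT. It stood at 13.48, 13.49 and 13.05 in GC and at 7.85, 8.50 and 8.48 in DFOG. Every isolated array was more than 3 log2 units above every cultured array, and the spread was wide in DFAT, with replicate 1 the lowest. The difference DFAT minus MA was -5.07 ± 0.42 (SE, 95% interval -6.00 to -4.15, limma adjusted p = 4.09e-06), which placed FOS 67th from the lowest of 23999 probe sets. That of DFOG minus GC was -5.17 ± 0.47 (SE, 95% interval -6.20 to -4.14, limma adjusted p = 1.3e-05), 35th from the lowest. Only 2 probe sets fell at least as far as FOS did in both comparisons, FOS included, and the other one had no symbol.

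ATF3, a stress-induced factor of the ATF/CREB family, stood at 10.34, 10.11 and 10.12 in MA and at 8.44, 7.85 and 8.88 in DFAT. It stood at 10.51, 10.40 and 9.86 in GC and at 7.0, 6.98 and 6.96 in DFOG. The isolated groups overlapped each other, and both cultured groups lay below them, DFOG the lowest. ATF3 was 3.49-fold lower in DFAT than MA, a difference of -1.80 ± 0.25 (SE, limma adjusted p = 0.00022), and 9.66-fold lower in DFOG than GC, a difference of -3.27 ± 0.28 (SE, limma adjusted p = 8.89e-06).

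BTG2, which slows the passage from G1 to S phase, stood at 12.93, 13.11 and 13.27 in MA and at 8.14, 9.29 and 9.98 in DFAT. Its levels were 11.29, 11.12 and 10.49 in GC and 7.79, 8.68 and 8.66 in DFOG. MA was the highest group and GC the next, with no overlap between them or with the cultured cells, whose groups overlapped each other. BTG2 was 15.6-fold lower in DFAT than MA (log2 difference -3.97 ± 0.41 SE, limma adjusted p = 2.27e-05) and 6.66-fold lower in DFOG than GC (-2.74 ± 0.46 SE, limma adjusted p = 0.00117).

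ZFP36 stood at 12.41, 12.48 and 12.64 in MA and at 8.94, 9.40 and 9.14 in DFAT. In the granulosa lineage it stood at 10.13, 10.08 and 9.44 in GC and at 8.66, 8.39 and 8.36 in DFOG. MA stood apart from all other groups, and GC lay only a little above DFAT; the lowest GC array, at 9.44, was close to the highest DFAT array, at 9.40. ZFP36 was 10.2-fold lower in DFAT than MA (log2 difference -3.35 ± 0.21 SE, limma adjusted p = 5.16e-07) and 2.58-fold lower in DFOG than GC (-1.37 ± 0.23 SE, limma adjusted p = 0.00128).

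IER3 stood at 11.26, 11.68 and 11.83 in MA and at 9.85, 9.91 and 9.79 in DFAT. It stood at 6.16, 5.88 and 5.82 in GC and at 8.88, 9.08 and 9.08 in DFOG. No groups overlapped, and the order was MA, DFAT, DFOG, GC. In GC its mean was at the 43.5th percentile of all probe sets, where FOS was at the 99.5th. IER3 was 3.34-fold lower in DFAT than MA (log2 difference -1.74 ± 0.18 SE, limma adjusted p = 1.87e-05) and 8.15-fold higher in DFOG than GC (3.03 ± 0.20 SE, limma adjusted p = 1.07e-06). A fall in DFAT with a rise in DFOG was called for 1.57% of probe sets.

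**Figure D2:**
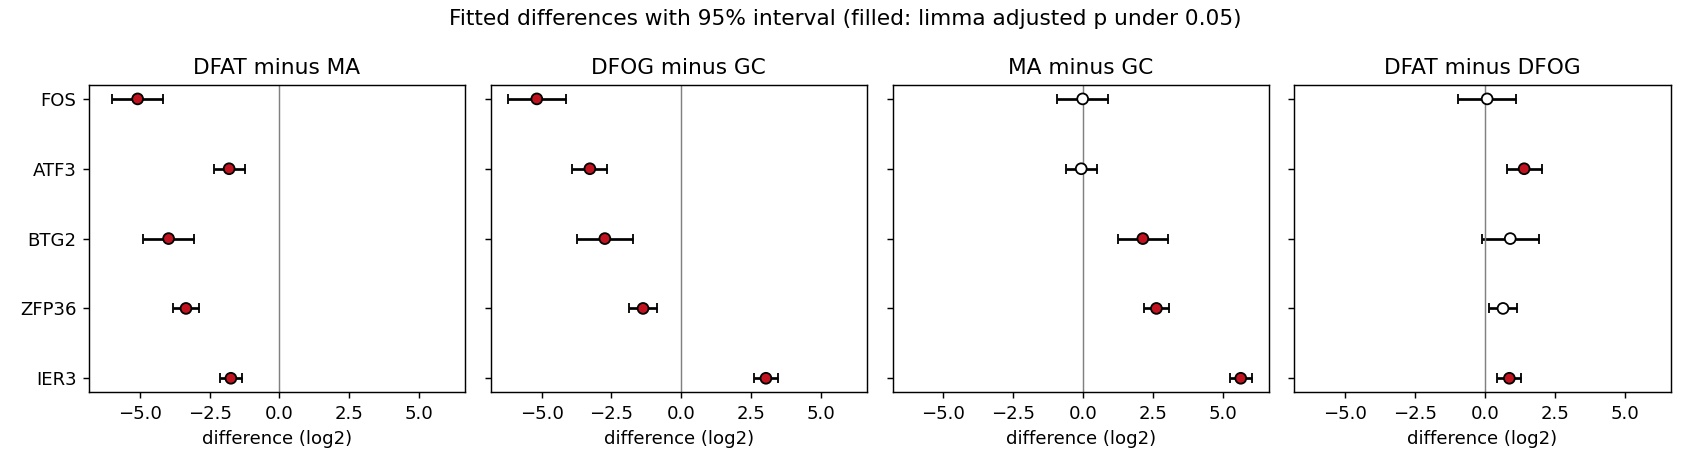
Fitted log2 difference (x axis) of each of the 5 genes in DFAT minus MA, DFOG minus GC, MA minus GC and DFAT minus DFOG, with the 95% interval as a bar and a filled point where the limma adjusted p was under 0.05. IER3 lies to the right of 0 in DFOG minus GC at 3.03, and the other 4 genes lie to the left of 0 in both lineages.

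The lineages were compared by the difference between both changes, DFAT minus MA less DFOG minus GC, tested in the same fit. It passed for 3 of 5 genes, where 23.3% of probe sets passed. For FOS the difference of changes was 0.09 ± 0.63 (SE, limma adjusted p = 0.943) with a 95% interval of -1.29 to 1.48. With arrays centred on the spiked poly-A controls that value was 1.52 (limma adjusted p = 0.0426), while the median of all probe sets moved from -0.05 to 1.37. ATF3 fell further in the granulosa lineage, by 1.47 ± 0.38 (SE, limma adjusted p = 0.0158), but the adjusted p was 0.0516 without DFOG replicate 1 and 0.0518 without DFOG replicates 2 and 3. With poly-A centring the ATF3 value was 2.89 (limma adjusted p = 2.43e-05). ZFP36 fell further in the adipocyte lineage, with a difference of -1.98 ± 0.31 (SE, limma adjusted p = 0.000912). With poly-A centring it was -0.55 (limma adjusted p = 0.326). The IER3 difference was -4.77 ± 0.26 (SE, limma adjusted p = 7.15e-07). For BTG2 it was -1.23 ± 0.62 (SE, 95% interval -2.59 to 0.13, limma adjusted p = 0.194), without DFAT replicate 3 it was -1.65 (limma adjusted p = 0.0494), and with poly-A centring its sign turned, at 0.19 (limma adjusted p = 0.784).

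Between the isolated cells, BTG2, ZFP36 and IER3 were higher in MA than GC, 3 of 5 where 20.7% of probe sets passed as higher. The differences MA minus GC were 2.14 ± 0.41 for BTG2 (SE, limma adjusted p = 0.00149), 2.62 ± 0.21 for ZFP36 (SE, limma adjusted p = 1.92e-06) and 5.64 ± 0.18 for IER3 (SE, limma adjusted p = 2.41e-09). The IER3 difference is 49.8-fold. FOS differed by -0.02 ± 0.42 (SE, 95% interval -0.94 to 0.91, limma adjusted p = 0.98) and ATF3 by -0.07 ± 0.25 (SE, 95% interval -0.63 to 0.49, limma adjusted p = 0.859). The poly-A controls had mean log2 values of 8.29 in MA, 6.95 in GC, 7.66 in DFAT and 7.74 in DFOG. Whether they were added evenly was not tested. Centring on these controls moved the median of all probe sets in MA minus GC from 0.07 to -1.27. The difference then became -1.36 for FOS (limma adjusted p = 0.00621), -1.41 for ATF3 (limma adjusted p = 0.000298), 0.79 for BTG2 (limma adjusted p = 0.0802), 1.28 for ZFP36 (limma adjusted p = 0.00183) and 4.29 for IER3. The similar FOS and ATF3 levels of MA and GC therefore depend on the scale, while in DFAT minus MA and DFOG minus GC all 5 genes passed in the same direction on both scales. Their sizes moved with the scale, to -1.17 for ATF3 and -1.11 for IER3 in DFAT minus MA and to -2.16 for ZFP36 in DFOG minus GC.

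Between the cultured cells, 2 of 5 genes passed, ATF3 and IER3, both higher in DFAT, where 3.70% of probe sets passed as higher. ATF3 was 1.40 ± 0.28 higher (SE, limma adjusted p = 0.00955) and IER3 0.87 ± 0.20 higher (SE, limma adjusted p = 0.018). ZFP36 did not pass, at 0.65 ± 0.23 (SE, limma adjusted p = 0.147), although its groups did not overlap. BTG2 differed by 0.90 ± 0.46 (SE, limma adjusted p = 0.366) and FOS by 0.08 ± 0.47 (SE, 95% interval -0.95 to 1.11, limma adjusted p = 0.977). Without DFOG replicate 1 the limma adjusted p was 0.0686 for ATF3 and 0.169 for IER3, and without DFOG replicates 2 and 3 it was 0.0669 and 0.0616. ATF3 also missed the threshold with DFAT and DFOG fitted alone (limma adjusted p = 0.0773), and IER3 without DFAT replicate 2 (limma adjusted p = 0.0549) and with poly-A centring (limma adjusted p = 0.201). BTG2 passed at 1.40 without DFAT replicate 1 (limma adjusted p = 0.0338), and was 0.48 without DFAT replicate 3 and 0.47 without DFOG replicate 1.

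The mean of both isolated groups was also set against the mean of both cultured groups, a contrast that shares its samples with the lineage comparisons. FOS was 5.12 ± 0.31 higher in isolated cells (SE, limma adjusted p = 3.96e-07), the 6th highest of 23999 probe sets. BTG2 was higher by 3.35 ± 0.31, ATF3 by 2.54 ± 0.19 and ZFP36 by 2.36 ± 0.16 (SE each), so that 4 of 5 passed as higher, where 18.3% of probe sets did. IER3 was lower by the same contrast, at -0.64 ± 0.13 (SE, limma adjusted p = 0.00263), which averages opposite changes of the lineages and was -0.57 with poly-A centring (limma adjusted p = 0.104). Of all probe sets 16.8% passed as lower. The isolated samples of FOS, ATF3, BTG2 and ZFP36 all lay above the cultured ones, which was so in either direction for 11.9% of probe sets.

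The 5 genes did not vary as 1 unit. Over the 11 samples, Pearson's r was 0.91 between FOS and ATF3, 0.89 between FOS and BTG2 and 0.94 between BTG2 and ZFP36, but -0.17 between FOS and IER3. These values mostly reflect the distance between 4 groups and are a description only. Within groups, GC replicate 3 was the lowest GC array for all 5 genes, and DFAT replicate 1 was the lowest DFAT array for FOS, BTG2 and ZFP36.

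The other genes of the response were taken from 8 lists, with 106 measured genes besides the 5. Among the AP-1, ATF and CREB factors, 11 of 21 listed genes were measured. JUN, the dimer partner of FOS, stood at 13.2 to 13.3 in MA and 10.1 to 10.7 in DFAT, and at 13.1 to 13.7 in GC and 11.04 to 11.05 in DFOG. Neither lineage overlapped, and JUN fell in both, with differences of -2.91 ± 0.20 (SE, limma adjusted p = 1.04e-06) and -2.44 ± 0.22 (SE, limma adjusted p = 1.38e-05). FOSL1, a FOS relative, rose by 0.79 in DFAT and 1.0 in DFOG, and lost the first call with the actin covariate described below and the second with poly-A centring. Its other probe sets gave 2.08 and 0.48 in DFAT and 2.19 and 1.02 in DFOG, of which 0.48 did not pass. In all, 1 gene of this list rose and 2 fell in DFAT, and 5 rose and 1 fell in DFOG. Of all named genes, 20.7% rose and 20.4% fell in DFAT, and 17.3% rose and 13.4% fell in DFOG. The counts of every list below that were made without poly-A centring are to be set beside these same shares. With poly-A centring, 5 rose and 1 fell in DFAT and 0 rose and 2 fell in DFOG. On that scale the median of all probe sets was 0.56 in DFAT minus MA and -0.81 in DFOG minus GC. The poly-A counts of this list and of every list below are to be read beside this shift, not beside the shares above. Counts of all probe sets called on that scale are given in the last section. CREM is 1 of the 2 genes of this list that fell in DFAT without that centring, but 2 of its 4 probe sets went the other way.

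Of 17 measured zinc finger, nuclear receptor and related early factors, 4 rose and 8 fell in DFAT, and 6 rose and 4 fell in DFOG, which became 5 and 4 in DFAT and 4 and 6 in DFOG with poly-A centring. EGR1, an early factor driven by SRF, ran from 11.3 to 13.2 in MA and from 9.11 to 9.96 in DFAT, and from 11.1 to 13.4 in GC and from 9.53 to 10.3 in DFOG. Its isolated samples were widely spread, and it fell in both, with differences of -2.67 ± 0.58 (SE, limma adjusted p = 0.00426) and -2.09 ± 0.65 (SE, limma adjusted p = 0.0358). Both EGR1 calls were lost with the actin covariate, and the one in DFOG also without MA replicate 2, GC replicate 1 or 3, or either DFOG sample (highest limma adjusted p = 0.198). The other EGR1 probe sets also passed as lower in both, at -3.84 and -3.31 in DFAT and at -2.63 and -2.05 in DFOG. KLF4 fell in both, with log2 differences of -1.86 in DFAT and -3.01 in DFOG. IRF1 and IER2 fell in DFAT, at -2.96 and -2.30, and their values in DFOG minus GC were 0.41 (limma adjusted p = 0.591) and -0.09 (limma adjusted p = 0.918). MYC and KLF9 moved as IER3 did, with values of -0.61 and -1.38 in DFAT minus MA and of 3.01 and 4.0 in DFOG minus GC. In the adipocyte lineage the sign of MYC turned under poly-A centring, and its call was also lost with array weights, with the actin covariate and without MA replicate 1 or DFAT replicate 1. That of KLF9 was lost in 6 of 20 settings, with poly-A centring, with the actin covariate and without MA replicate 2 or 3 or DFAT replicate 1 or 2 (highest limma adjusted p = 0.133), and the other KLF9 probe set did not pass in either lineage.

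Feedback regulators limit the signal that induces them. Of 14 measured, 7 fell and 0 rose in DFAT, and 5 fell and 2 rose in DFOG. With poly-A centring, 3 fell and 2 rose in DFAT and 7 fell and 2 rose in DFOG. RGS2, an inhibitor of G protein signalling, fell in both, at -3.15 in DFAT and -3.34 in DFOG, as did NFKBIA, the inhibitor of NF-kappaB, at -1.99 and -2.03. In DFAT minus MA the 2 other RGS2 probe sets, with low mean levels of 4.79 and 4.09, gave -0.59 and -0.20. In DFOG minus GC they gave -0.18 and -0.02, and neither passed. PPP1R15A, which restores translation after stress, fell at -1.25 and -2.41, the first not passing with poly-A centring. The MAP kinase phosphatase DUSP1 did not pass, with -0.93 in DFAT minus MA (limma adjusted p = 0.067) and -0.58 in DFOG minus GC (limma adjusted p = 0.354). SGK1, a kinase induced by serum and glucocorticoid, rose by 4.29 in DFOG. Its difference of -1.18 in DFAT minus MA passed (limma adjusted p = 0.0429) but was lost in 9 of 20 settings, with poly-A centring, with the actin covariate and without MA replicate 1 or 3, any DFAT sample or either DFOG sample (highest limma adjusted p = 0.224).

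BTG2 belongs with the growth arrest and p53-responsive genes, of which 13 others were measured. In DFAT 6 fell and 1 rose, and in DFOG 6 fell and 3 rose. With poly-A centring it was 3 and 3 in DFAT and 7 and 1 in DFOG. The differences in DFAT and in DFOG were -2.70 and -3.73 for GADD45G, -1.98 and -1.36 for GADD45B, -3.82 and -1.40 for SESN1, a regulator of mTORC1, and -1.52 and -2.64 for the cyclin CCNG2. Without DFOG replicate 1 GADD45B did not pass in DFOG, and with poly-A centring CCNG2 did not pass in DFAT. In both lineages 5 of the 13 fell and 1, FAS, rose. Both FAS calls were lost with the actin covariate, the one in DFAT also without MA replicate 2 or 3 and the one in DFOG without GC replicate 2 or 3 or DFOG replicate 1, and with poly-A centring its sign in DFOG turned.

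ATF3 is also a target of the integrated stress response, in which ATF4 drives amino acid synthesis genes. None of the 9 measured genes of that list fell in either lineage, while 4 rose in DFAT and 5 in DFOG, but with poly-A centring 2 fell and 3 rose in DFOG. ASNS, which makes asparagine, rose by 2.34 and 1.85, and MTHFD2, an enzyme of mitochondrial folate metabolism, by 4.06 and 2.05. These ran opposite to ATF3 in the same samples.

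Secreted early products and transcripts known as ZFP36 targets numbered 16, of which 8 rose and 2 fell in DFAT and 7 rose and 1 fell in DFOG. With poly-A centring it was 11 and 1 in DFAT and 5 and 3 in DFOG. LIF rose by 2.16 in DFAT and 5.48 in DFOG, and BDNF by 2.78 and 5.19. The chemokine CCL2 rose by 8.33 in DFOG. CXCL2 fell by 2.95 in DFAT, and AREG, an EGF receptor ligand, rose by 4.18 in DFAT. In DFOG minus GC it was at -1.86, a call that was lost in 8 of 20 settings, when any 1 of the MA, GC or DFOG samples was left out (highest limma adjusted p = 0.142).

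Upstream kinases and SRF pathway genes showed 3 of 10 higher and 2 lower in DFAT, and 3 higher and 1 lower in DFOG, which with poly-A centring became 3 and 0 and then 0 and 2. Among 16 heat shock genes, 4 rose and 5 fell in DFAT, and 4 rose and 2 fell in DFOG. With poly-A centring these became 6 and 2 in DFAT and 2 and 7 in DFOG. For both lists the shares of all named genes, without that centring, were 20.7% higher and 20.4% lower in DFAT, and 17.3% higher and 13.4% lower in DFOG. DNAJB1 and HSPA6, which are strongly induced by heat and misfolded protein, fell in DFAT, at -2.37 and -2.01, and HMOX1, which degrades haem, rose by 2.93 there.

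Over the 106 genes, 14 fell in both lineages, 13 rose in both, 5 fell in DFAT and rose in DFOG, and 1 did the reverse. Of all named genes, 5.07% fell in both and 8.35% rose in both, while 2.14% fell in DFAT and rose in DFOG and 1.6% did the reverse. In DFAT 25 rose and 32 fell, and in DFOG 35 rose and 20 fell. This balance turned with poly-A centring, to 42 and 14 in DFAT and 17 and 36 in DFOG, where 10 fell in both and 9 rose in both. The median of all probe sets moved the same way. It went from -0.07 to 0.56 in DFAT minus MA and from -0.02 to -0.81 in DFOG minus GC. The counts of all probe sets called on that scale, given in the last section, turned the same way. The turn is thus not particular to these genes. Shares of all named genes with the actin covariate or with a sample left out are not given here, so the counts that follow only describe the lists. With the actin covariate 10 fell in both and 8 rose in both. When 1 sample was left out in turn, the number that fell in both ran from 10 to 15 and the number that rose from 10 to 16. JUN, KLF4, NFKBIA, RGS2, GADD45G and SESN1 were the 6 of the 14 that kept both calls under every one of 20 alternative settings.

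**Figure D3:**
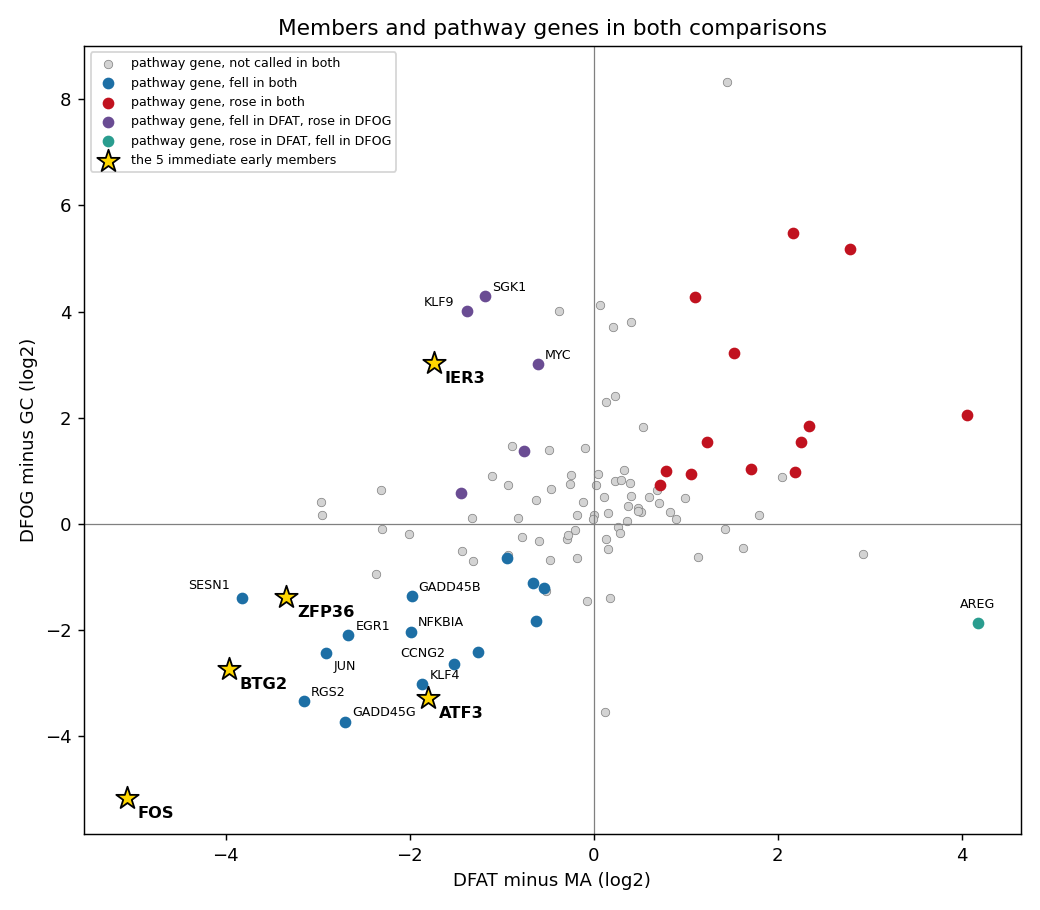
Log2 difference DFAT minus MA (x axis) against DFOG minus GC (y axis) for the 5 immediate early genes (stars) and 106 pathway genes (circles), coloured by whether limma called them in both lineages. FOS lies at the lower left at -5.07 and -5.17, beyond JUN and the other genes that fell in both, and IER3 lies at the upper left with SGK1, KLF9 and MYC.

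Markers of other cells also changed, in ways that differed between lists and between lineages. Macrophages also express early genes, and the mean of 9 of 13 listed macrophage markers was 5.79 to 6.79 in MA, 4.52 to 4.77 in DFAT, 4.30 to 4.55 in GC and 4.45 to 4.52 in DFOG. Of the 9, 7 fell in DFAT against MA and all 9 were higher in MA than GC, while 1 rose and 0 fell in DFOG against GC. Of all named genes, 20.7% rose and 20.4% fell in DFAT, and 26.8% were higher in MA than GC. In DFOG 17.3% of them rose and 13.4% fell, shares that also apply to the marker lists below. The mean of 9 endothelial markers was 5.55 to 6.13 in MA and 5.11 to 5.46 over DFAT, GC and DFOG, but its members differed. In DFAT against MA 4 of them fell and ENG rose by 1.99, while TIE1 was at -3.26 in MA minus GC and at -2.47 in DFOG minus GC and PECAM1 rose by 1.77 in DFOG. Of 6 theca and oocyte markers, INSL3, a theca cell hormone, and GDF9, an oocyte growth factor, were lower in DFOG than GC, at -3.01 and -1.80. The other 4 did not pass. The mean of that list was 5.78 to 6.15 in GC and 5.17 to 5.31 in DFOG. Of 5 mesothelial and epithelial markers 2 rose in DFOG, KRT19 by 4.48 and KRT8 by 1.20, and the other 3 did not pass. The mean of 6 stromal markers was higher in cultured cells, at 10.8 to 11.4 in DFAT against 7.69 to 8.81 in MA, and 9.59 to 9.77 in DFOG against 5.38 to 5.70 in GC. Of the 6, 5 rose in each lineage, and COL3A1 did not pass, at -0.52 and -0.64. Of 3 neutrophil markers 2 were higher in MA than GC and 1 fell in DFAT against MA. Their mean was 5.46 to 5.84 in MA, 4.55 to 6.22 in DFAT, 3.86 to 3.95 in GC and 4.10 to 4.11 in DFOG. The values carry no detection calls, so no marker can be called absent. The part of other cells in the early gene levels was not tested.

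A measure of RNA quality also differed between isolated and cultured samples. The actin control, read at the 3′ and the 5′ end, had a mean log2 difference between its ends of 1.88 in MA and 1.35 in GC, with SDs of 0.52 and 0.55 over 3 samples each, and of 0.61 in DFAT and 0.39 in DFOG, with an SD of 0.33 in both over 3 and 2 samples. A larger value means shorter or less fully copied RNA. Isolated samples were higher by 1.09 (exact two-sided permutation test over 462 arrangements, p = 0.00649, adjusted p = 0.013 over 2 controls), and by 0.40 for GAPDH (exact p = 0.0801). Single samples ran from 1.5 to 2.47 in MA, from 0.72 to 1.76 in GC, from 0.33 to 0.97 in DFAT and from 0.15 to 0.62 in DFOG, so isolated and cultured samples overlapped in range. With the actin difference as a covariate, FOS remained at -4.83 in DFAT minus MA (limma adjusted p = 0.00076) and -4.99 in DFOG minus GC (limma adjusted p = 0.00035). All 5 genes passed in both lineages in that fit. The mean difference of IER3 between isolated and cultured cells was -0.27 there and did not pass (limma adjusted p = 0.422).

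**Figure D4:**
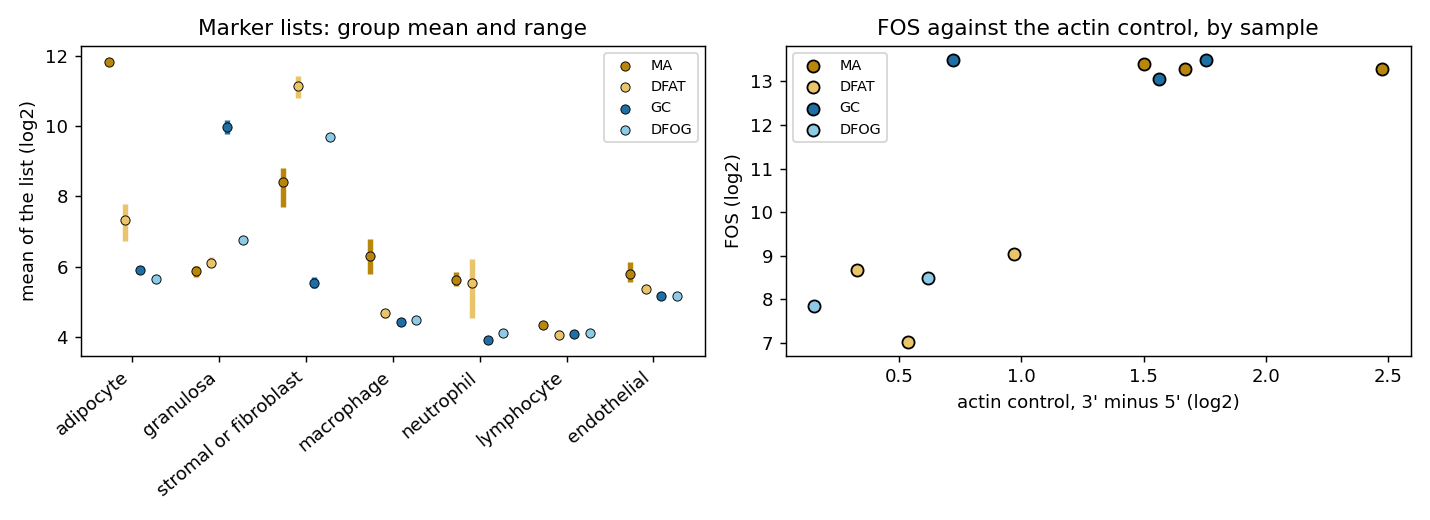
Left, mean log2 level of marker lists (y axis) in each group (points) with the range over samples (bars). Right, FOS level (y axis, log2) against the actin 3′ minus 5′ difference (x axis, log2) for the 11 samples. Isolated samples have actin values of 0.72 to 2.47 and cultured samples of 0.15 to 0.97.

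The genes whose pattern over the 11 samples was most like that of the 5 were found by Pearson's r among 3091 named genes with an SD of at least 0.5. With the mean of the 5, the 8 nearest were ACADS, ANG, FN3K, RASGEF1B, AUH, NPC1, KLF11 and ACAD11, with r from 0.98 to 0.99. ACADS, AUH and ACAD11 encode enzymes of fatty acid or branched-chain amino acid breakdown. Nearest to FOS were MARCH8, RALGAPA2 and TSC22D3, to ATF3 KAT8, GTDC1 and MGST1, and to BTG2 ACADS, NPC1 and ANG. Nearest to ZFP36 were PCCA, ARV1 and OXCT1. Nearest to IER3 was ACSL1, which activates long-chain fatty acids, with means of 11.6 in MA, 8.81 in DFAT, 4.38 in GC and 8.33 in DFOG, followed by FAM69A and SH3GLB1. Such r values reflect 4 separated groups and say nothing of shared control.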

How the data were processed

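Total RNA was extracted with Trizol and labelled by amplification from the 3′ end, per the labels' protocols. The deposited values are log2 expression values that the authors made by RMA (background correction, a common distribution for all arrays, 1 value per probe set), per the submitters' processing notes. The RMA version is not given in the sources used here. No further normalization was applied. Detection calls are not part of the values, and the number of arrays limits the precision.

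Of 24123 probe sets, 124 controls were left out. Of the 23999 tested, 10069 had 1 symbol, 198 several and 13732 none in the platform annotation, which can be old. Where a gene had several probe sets, the one with the highest mean was used. No coordinates are given, since no genome build is named for the array.

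Group means were fitted for each probe set to all 11 samples in limma 3.58.1 (R 4.3.3), leaving 7 residual degrees of freedom. Tests were moderated and two-sided. P-values were adjusted by Benjamini-Hochberg across the 23999 probe sets, with passed, rose or fell written for an adjusted p below 0.05. The fit was tested on simulated data. Figures were drawn with matplotlib 3.10.9.

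The 5 genes and the lists were chosen with earlier results of these data known. Named genes were the 5, JUN, EGR1, DUSP1 and MYC, up to 4 genes per direction of each list with the largest change in each lineage and up to 3 in other contrasts, and the nearest by Pearson's r. Genes of the rule without values here enter the counts of their list.

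Alternatives were 12 separate arrays, other scalings, the actin covariate, groups of each comparison alone, a filter on low values, other probe set rules, a replicate block and each sample left out. The labels do not say that replicate numbers pair samples, and the fit has no block.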

Additional observations from a re-analysis of the deposited data

Results flagged for a closer look

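The changes DFAT minus MA and DFOG minus GC differed, by the limma test of the difference itself, for 3 of the 5 genes and for 43 of the 106 pathway genes (11 higher, 32 lower), where 13.2% of all named genes passed as higher and 15.9% as lower. Values follow for the 33 of them that have the largest such differences, up to 3 per direction in each list, a choice made by this same difference. The check for outlying samples within a group needs at least 4 samples a group and was not run. Values are the log2 change in the adipocyte lineage less that in the granulosa lineage, so a value below 0 means a lower change in DFAT. With poly-A centring the median of this difference over all probe sets moved from -0.05 to 1.37. The balance of higher and lower genes, and the sign of values a little below 0, therefore depend on the scale. Of the 5 genes, ATF3 differed by 1.47, ZFP36 by -1.98 and IER3 by -4.77.

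Among factors, CEBPB differed by -2.36, CREM by -2.03, ATF4 by -1.13, KLF9 by -5.38, MYC by -3.61 and BHLHE40 by -3.39. The change of ATF4 passed in neither lineage, and its difference of changes passed narrowly (limma adjusted p = 0.0468). In the other direction were ID2 at 3.65, NR4A2 at 1.76 and ID3 at 1.21. Among feedback and growth arrest genes, SGK1 differed by -5.47, PLK2 by -4.07, DUSP6 by -2.95, SESN1 by -2.42, CDKN1A by -1.29 and BTG1 by -0.93, and RHOB by 1.58 and PPP1R15A by 1.15. For integrated stress response genes it was 2.01 for MTHFD2 and -4.39 for PSAT1.

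AREG had the largest positive value of these genes, 6.03, and CCL2 the lowest, -6.88. PTGS2 was at 2.07, LIF at -3.32 and THBS1 at -3.17. Of the kinases, MAP2K6 was at 1.21, RPS6KA3 at -1.88, MAPK9 at -1.67 and MAPK14 at -1.17. Heat shock genes gave 3.50 for HMOX1, 1.63 for HSPA8, -3.50 for HSPB8, -2.17 for CRYAB and -2.14 for BAG3. CREM has probe sets that disagree in sign, as given above. KLF9, BHLHE40 and CRYAB each rest on 1 probe set, with a second probe set that passed in neither lineage. The second probe sets of ATF4 and BAG3 passed in neither lineage as well, but kept the signs of the first.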

How the results depend on the processing

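Across the alternatives, 612 values of the 5 genes kept their direction and side of the threshold, 6 newly passed, 13 no longer passed and 19 changed sign. None of those 19 passed as reported or in the alternative. They were the FOS difference of changes (-0.0111) and FOS in DFAT minus DFOG (-0.0278) on 12 separate arrays with and without the block, FOS (0.0604) and ATF3 (0.0088) in MA minus GC with arrays centred on their median, FOS there with array weights (0.00584), the BTG2 difference of changes with poly-A centring (0.19), and values with 1 sample left out. The latter ran from -0.31 to 0.70 for FOS in the difference of changes, from -0.32 to 0.69 in DFAT minus DFOG and from -0.16 to 0.0573 in MA minus GC, and from -0.27 to 0.0559 for ATF3 in MA minus GC. All 5 genes kept their calls in DFAT minus MA and DFOG minus GC in every alternative. The count of genes called in DFAT minus DFOG, 2, was 1 with poly-A centring and 1 with the groups of the comparison alone, and ran from 0 to 3 with 1 sample left out. In the difference of changes it ran from 2 to 4. With a sample of DFOG left out, the lone DFOG sample is assumed to vary like the other groups.

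The replicate numbers were set in as a block on all 12 arrays, with the effect of each number shared by all 4 groups. Pairing within each lineage alone was therefore not tested. Against the 12 arrays without the block, the genes called in DFAT minus DFOG fell from 3 to 2, since ZFP36 went from an adjusted p of 0.0419 to 0.0512 at 0.69 (limma), and the counts in the other contrasts stayed at 5, 5, 3, 3 and 5. The probe sets called there were 2757 without the block and 2947 with it, against 1921 in the fit of 11 samples. Deviations of same-numbered arrays correlated at 0.10 to 0.17 for MA and DFAT (the lowest just under 0.1), -0.12 to 0.03 for MA and GC, -0.20 to 0.37 for DFAT and DFOG and 0.36 to 0.60 for GC and DFOG. Since DFOG 2 and 3 are 1 sample, the last do not give 3 separate pairs, and the numbers were not taken as pairs. As a hint from the data, 6 of 6 arrays of MA and DFAT and 5 of 6 of GC and DFOG correlated best with the array of their own number. Arrays of both groups enter this tally, so each pair counts from both sides. Since DFOG 2 and 3 are nearly identical, it cannot match them to separate GC arrays.

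With poly-A centring the median of all probe sets was 0.56 in DFAT minus MA and -0.81 in DFOG minus GC. The probe sets called then rose from 5971 to 10417 in DFOG minus GC (1062 higher, 9355 lower), from 5593 to 16761 in the difference of changes (16040 higher, 721 lower) and from 9713 to 20211 in MA minus GC (1146 higher, 19065 lower). In DFAT minus MA 8224 passed (6884 higher, 1340 lower). The actin covariate lowered those of isolated minus cultured from 8440 to 4601. Without DFOG replicate 1 the count was 3586 in DFOG minus GC and 1103 in DFAT minus DFOG, and with those groups alone 1025. With genes as units, counts of 752 to 3421 came from fewer features. The cause of the other shifts was not tested.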
